A study of Mus musculus with 5 samples.

Results

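Ago clusters on 9 genes of insulin and growth hormone signalling, Insr, Irs1, Irs2, Igf1, Igf1r, Ghr, Akt2, Pik3r1 and Foxo1, were described across liver development in C57BL/6 mice. The members were found by their symbols in the gene column of the interaction tables, and they are 9 of the 22714 genes with a listed cluster. Livers at embryonic days e12.5, e15.5 and e18.5, at postnatal day 7 (P7) and from adults of 6 to 8 weeks were crosslinked with 3 exposures to 254 nm light at 0.2 J/cm2, and the RNA bound to Argonaute (Ago) was sequenced (HITS-CLIP). No genotype or treatment differed between the groups. Ago2 was precipitated at every stage, and an Ago1 antibody was added at P7 and in the adult, so the effect of this antibody cannot be told apart from that of birth. There was 1 interaction table per stage and the labels give no replicates, so no difference between stages could be tested, and all intervals cover counting error only.

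Growth hormone acts on the liver through its receptor Ghr and drives production of the circulating growth factor Igf1. Insulin and Igf1 bind the related receptor kinases Insr and Igf1r, which phosphorylate the adaptors Irs1 and Irs2. These recruit phosphoinositide 3-kinase through its regulatory subunit Pik3r1, and the kinase Akt2 then keeps the transcription factor Foxo1 out of the nucleus. A miRNA guides Ago to mRNAs chiefly by pairing of its seed, bases 2 to 8, with a short site on the target.

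Each table lists seed matches of miRNAs within clusters of overlapping reads, with a read number for each site. Sites of a cluster can differ in this number, and the highest was taken as the reads of the cluster. Cluster reads summed to between 13008703 (e18.5) and 44867326 (e12.5) per table, and no cluster had fewer than 5 reads. The level of a gene is the sum of the reads of its clusters in the 3'UTR, CDS or 5'UTR, scaled to a table total of 1000000 cluster reads (RPM). The level measures Ago-bound RNA fragments and is not corrected for transcript length. It serves to compare stages within a gene. In a tissue sample, fewer cells of a type and less RNA per cell cannot be told apart. The embryonic tables consist of 2 lists each, which the labels do not describe. The labels also do not say whether the first or second lists of different tables correspond. The lists were added up, and their values are given for members found in both lists at least 2-fold apart, and for some others. Embryonic values given by age run from the youngest stage to the oldest.

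The target sites shown first lie in clusters that are described with their read numbers. Each is given 5' to 3' on the strand of the mRNA, from GRCm38, with the bases that pair with the miRNA seed, and an A facing its first base, in capitals.
Igf1 3'UTR, let-7, chr10:87932078-87932101, plus strand: gcaatatgtcatctacCTACCTCA
Igf1 3'UTR, miR-19, chr10:87930913-87930936, plus strand: tgtttgtttaaaaagcTTTGCACc
Igf1 CDS, miR-101a-3p, chr10:87913703-87913726, plus strand: tgaggagactggagatGTACTGTg
Ghr CDS, miR-194-5p, chr15:3341018-3341041, minus strand: ctgctggaaaaaacagCTGTTACt
Igf1r 3'UTR, miR-223-3p, chr7:68226623-68226646, plus strand: ctttacccgaacccttAACTGACA
Igf1r CDS, miR-16 family, chr7:68212091-68212114, plus strand: tcgtccacagagacctTGCTGCTA
Insr 5'UTR, miR-30, chr8:3279552-3279575, minus strand: agctgacgggctgcgtTGTTTACg
Irs1 CDS, miR-194-5p, chr1:82287377-82287400, minus strand: tccacagcctcttcttCTGTTACA
Irs2 CDS, miR-26, chr8:11004490-11004513, minus strand: cgacttcctgtcccatcACTTGAA
Pik3r1 CDS, miR-26, chr13:101687227-101687250, minus strand: gaggaggttggaagaagACTTGAA
Foxo1 3'UTR, miR-374b-5p, chr3:52349473-52349496, plus strand: tgttaagagcaaattgTATTATAg
Pik3r1 and Irs2 share the last 7 bases of their miR-26 sites, and Ghr and Irs1 share the match to miR-194-5p.

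The miRNAs of these sites are shown with the seed in capitals, as RefSeq gives the mature forms with GRCm38.
let-7c-5p: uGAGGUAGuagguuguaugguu
miR-19b-3p: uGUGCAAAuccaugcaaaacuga
miR-101a-3p: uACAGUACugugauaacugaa
miR-194-5p: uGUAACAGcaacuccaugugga
miR-223-3p: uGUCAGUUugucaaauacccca
miR-16-5p: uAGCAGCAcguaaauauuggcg
miR-30a-5p: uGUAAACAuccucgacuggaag
miR-26a-5p: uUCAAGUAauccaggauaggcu
miR-374b-5p: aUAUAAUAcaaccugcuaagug
A listed site is a seed match within a cluster. It does not show which miRNA guided Ago there, so the share of the miRNA among the miRNA reads of a table is given beside most of the sites.

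The ligand Igf1 had 0.936, 7.69 and 21.4 RPM in the embryonic tables in order of age, 84.1 at P7 and 119 in the adult. In the added lists the levels followed the order of the stages, and no 2 neighbouring stages had overlapping 95% Wilson intervals. Adult over e12.5 was 128-fold (95% counting interval 94.1 to 173), which was the 99.7th percentile of all 8865 genes measured in both tables. The e12.5 value rested on 42 reads. The first list held no Igf1 cluster in mRNA regions at e12.5 or e15.5 and gave 24.6 RPM at e18.5. The second gave 1.4, 10.5 and 9.26 RPM by age, so among the second lists e18.5 was not above e15.5. The first list of e18.5 was above both, and the labels do not say which lists correspond. From P7 to adult, tables that share the antibodies, the level was 1.42-fold higher (1.33 to 1.51).

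The clusters of Igf1 after birth lay mostly in the 3'UTR. It had 25 clusters in the 3'UTR at P7 and 29 in the adult, against 2 at e12.5 and 2 at e18.5. Joined over the tables they made 41 loci in its last exon, of which 14 were listed at both P7 and adult, 11 at P7 only and 15 in the adult only. The locus with most reads differed between these 2 tables. The overlap of loci between them was not computed over all genes.

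**Figure D1:**
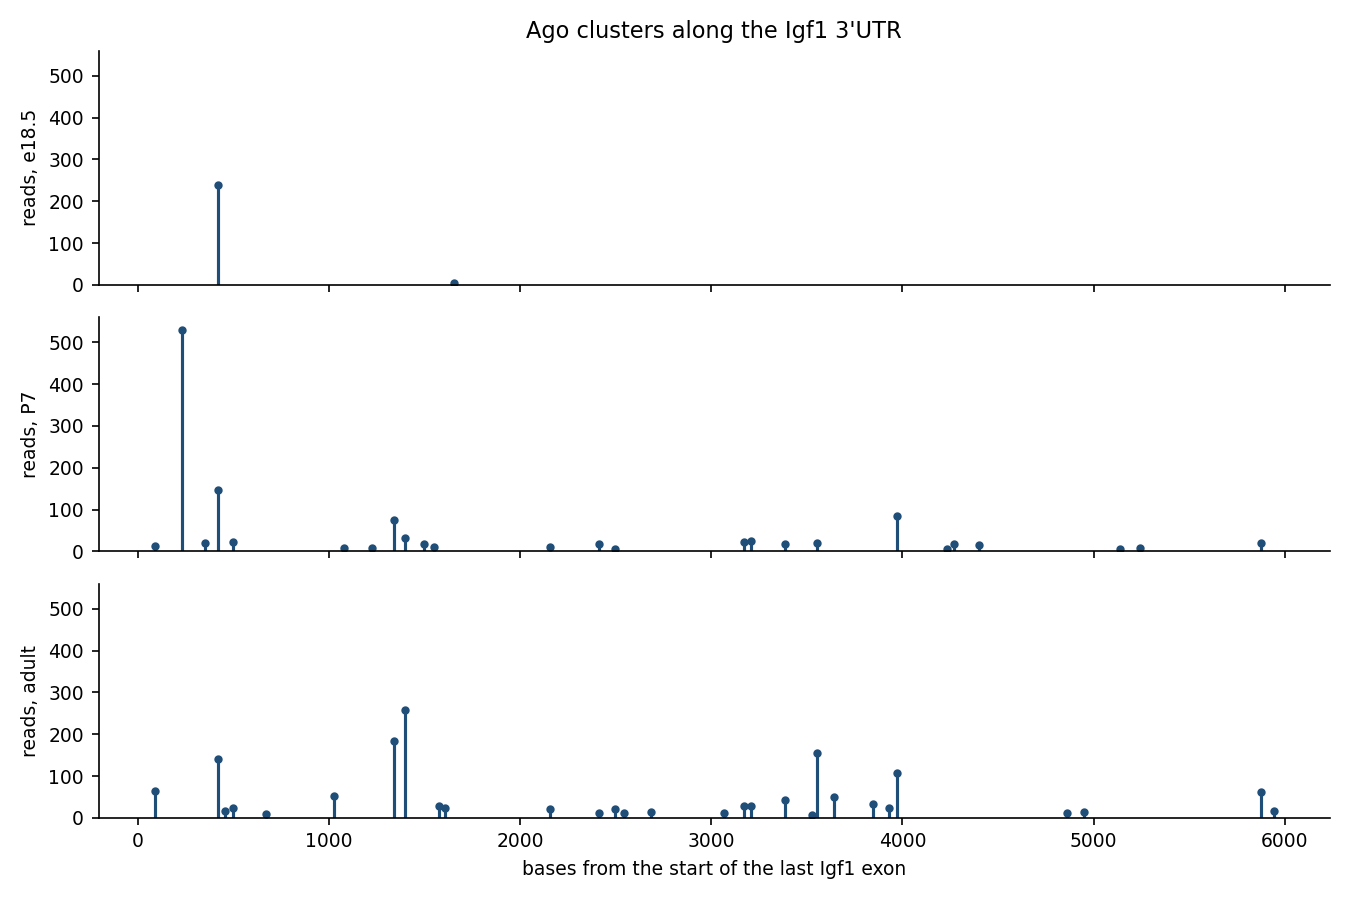
Ago clusters along the last exon of Igf1. Each line is 1 locus, at its distance in bases from the start of the exon, and its height is the number of reads at e18.5, P7 and adult. The highest locus at P7, with 529 reads, was not listed in the adult, and the highest in the adult had 258 reads.

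The P7 locus with 529 reads lay at the start of the 3'UTR (chr10:87930904-87930954), and no other table listed it. The miR-19 site shown above lay in this locus under 71 reads, with an overlapping 7mer site of miR-18a-5p under 72. At P7 miR-19b-3p took 0.0815% of miRNA reads and miR-18a-5p 0.056%, both less than at e12.5 (0.382% and 0.291%), where no cluster was listed there. In the adult the 3'UTR locus with most reads was that of the let-7 site, an 8mer with a conservation score of 1 on the deposited scale from 0 to 1. The site was listed under 32 reads at P7 and 252 in the adult, and it was not listed in any embryonic table. let-7c-5p, whose seed pairs there, was at 0.464% of miRNA reads in the youngest embryos, 2.49% in the oldest, 10.9% at P7 and 15.6% in the adult. Other let-7 miRNAs share this seed. From e12.5 to adult, let-7a-5p went from 0.96% to 1.25%, let-7f-5p from 0.466% to 1.62% and let-7b-5p from 0.0489% to 3.0%. An adjacent cluster with a 7mer site of miR-122-5p, the most abundant miRNA at P7, had 74 reads at P7 and 183 in the adult.

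The Igf1 locus with the highest mean level was in the CDS, in exon 3 of 4 (chr10:87913679-87913735), with 83 reads at P7 and 712 in the adult and none in the embryonic tables. The site of miR-101a-3p was listed under all of these reads, and this is a miRNA with 0.0132% of miRNA reads at e12.5 and 0.293% in the adult. A 7mer of miR-673-5p in the locus was listed under 29 reads at P7 and 124 in the adult. This miRNA took 0.379% of miRNA reads at e12.5 and 0.00031% in the adult. One 3'UTR locus (chr10:87931091-87931114) was listed in 4 of the 5 tables, with 27 and 239 reads in the youngest and oldest embryos, 146 at P7 and 140 in adults, and was not listed at e15.5. It held no site of at least 7 matched bases of a miRNA among the 50 most abundant of any table.

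The growth hormone receptor Ghr had 3.61, 1.09 and 9.76 RPM in the embryo by age, 7.88 at P7 and 19.1 in the adult. The adult level stood above all others, and the lowest, at e15.5, rested on 18 reads. Adult over e12.5 was 5.29-fold (4.42 to 6.32), and adult over P7 was 2.42-fold (2.0 to 2.94). The intervals of e18.5 and P7 overlapped. At e12.5 Ghr was listed in the second list alone, and at e18.5 the first list gave 11.7 RPM and the second 2.22.

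Few Ghr clusters lay in the 3'UTR, 5 in all tables together, against 23 in the CDS and 69 in introns with no mRNA region. The adult table held 46 of its 103 clusters. At e18.5 its locus with most reads, 82, was in exon 6 of 11 (chr15:3341014-3341027), and held the 7mer of miR-194-5p. A further 7mer of this miRNA lay in the 5'UTR under 39 reads, also at e18.5 only. In the adult the main locus was in the last coding exon (chr15:3319903-3319952), with 126 reads, and 11 at P7. A 7mer of miR-199a-3p and miR-199b-3p and a 7mer of miR-140-5p were listed there under 98 reads in the adult alone.

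The receptor Igf1r had 14.4, 28.6 and 41.8 RPM in the embryo by age, followed by 34.4 at P7 and 0.482 in the adult. The level was highest around birth, where the intervals of e18.5 and P7 did not overlap, and lowest in the adult. The order of e18.5 and P7 depends on the scaling. With mRNA cluster reads they were at 139 and 168 RPM, and with the study's library totals at 24.7 and 28.0. The adult value was 12 reads of 1 cluster in exon 7 of 21, a locus that no other table listed. It was 29.8-fold lower than e12.5 (16.8 to 52.7) and 71.3-fold lower than P7 (40.2 to 126). The fold from P7 to adult was at the 0.107th percentile of the 9371 genes measured in both tables. The lists of e12.5 gave 24.4 and 9.41 RPM. The first list of e15.5 held no Igf1r cluster in mRNA regions and the second gave 39.1 RPM, while the lists of e18.5 gave 41.7 and 42.2.

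Of the 22 loci of Igf1r in mRNA regions, 4 were in 3 or more tables. Its main 3'UTR locus (chr7:68226631-68226660, exon 21 of 21) held the miR-223-3p 8mer and had 21, 144 and 57 reads before birth in order of age and 360 at P7. At P7 this locus carried 63.5% of the Igf1r reads, and it was not listed in the adult. It was the only 3'UTR 8mer of a miRNA among the 50 most abundant of any table that a member showed in at least 3 tables. miR-223-3p, known from myeloid cells, took 0.522%, 0.336% and 2.87% of miRNA reads in the embryonic tables in order of age, 0.898% at P7 and 0.101% in the adult. The miR-16 family 8mer in exon 18 was listed in the same 4 tables, with 88, 149, 35 and 106 reads in the order of the stages. miR-16-5p took 3.51% of miRNA reads at P7 and 14.0% in the adult, where no cluster was listed. Igf1r also had 100 clusters in introns with no mRNA region, of which 76 were in the e12.5 table and 2 in the adult table.

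The insulin receptor Insr had 24.1, 36.0 and 50.4 RPM in the embryo by age, 27.4 at P7 and 25.4 in the adult. The level was highest at e18.5, and the intervals of e12.5, P7 and adult overlapped. Scaled to mRNA cluster reads alone, the adult was highest instead, 1.82-fold above e12.5. Adult over e12.5 was 1.05-fold (0.954 to 1.16). The lists of e12.5 stood far apart, at 4.25 and 33.9 RPM, as did those of e18.5, at 60.5 and 11.5.

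Insr reads were spread over many places. It had 70 loci in mRNA regions, 53 of them in 1 table only and none in all 5 tables. The locus with the highest mean level was in exon 16 of 21 (chr8:3163320-3163327), with 247 reads at e12.5, 108 in the next table and none later. The 5'UTR site of miR-30 was listed under 59 reads at e15.5 and 37 at P7. miR-30a-5p took 0.629% and 4.64% of the miRNA reads of those tables. An 8mer of miR-27b-3p in the 3'UTR, under 37 reads, was listed at P7 only.

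**Figure D2:**
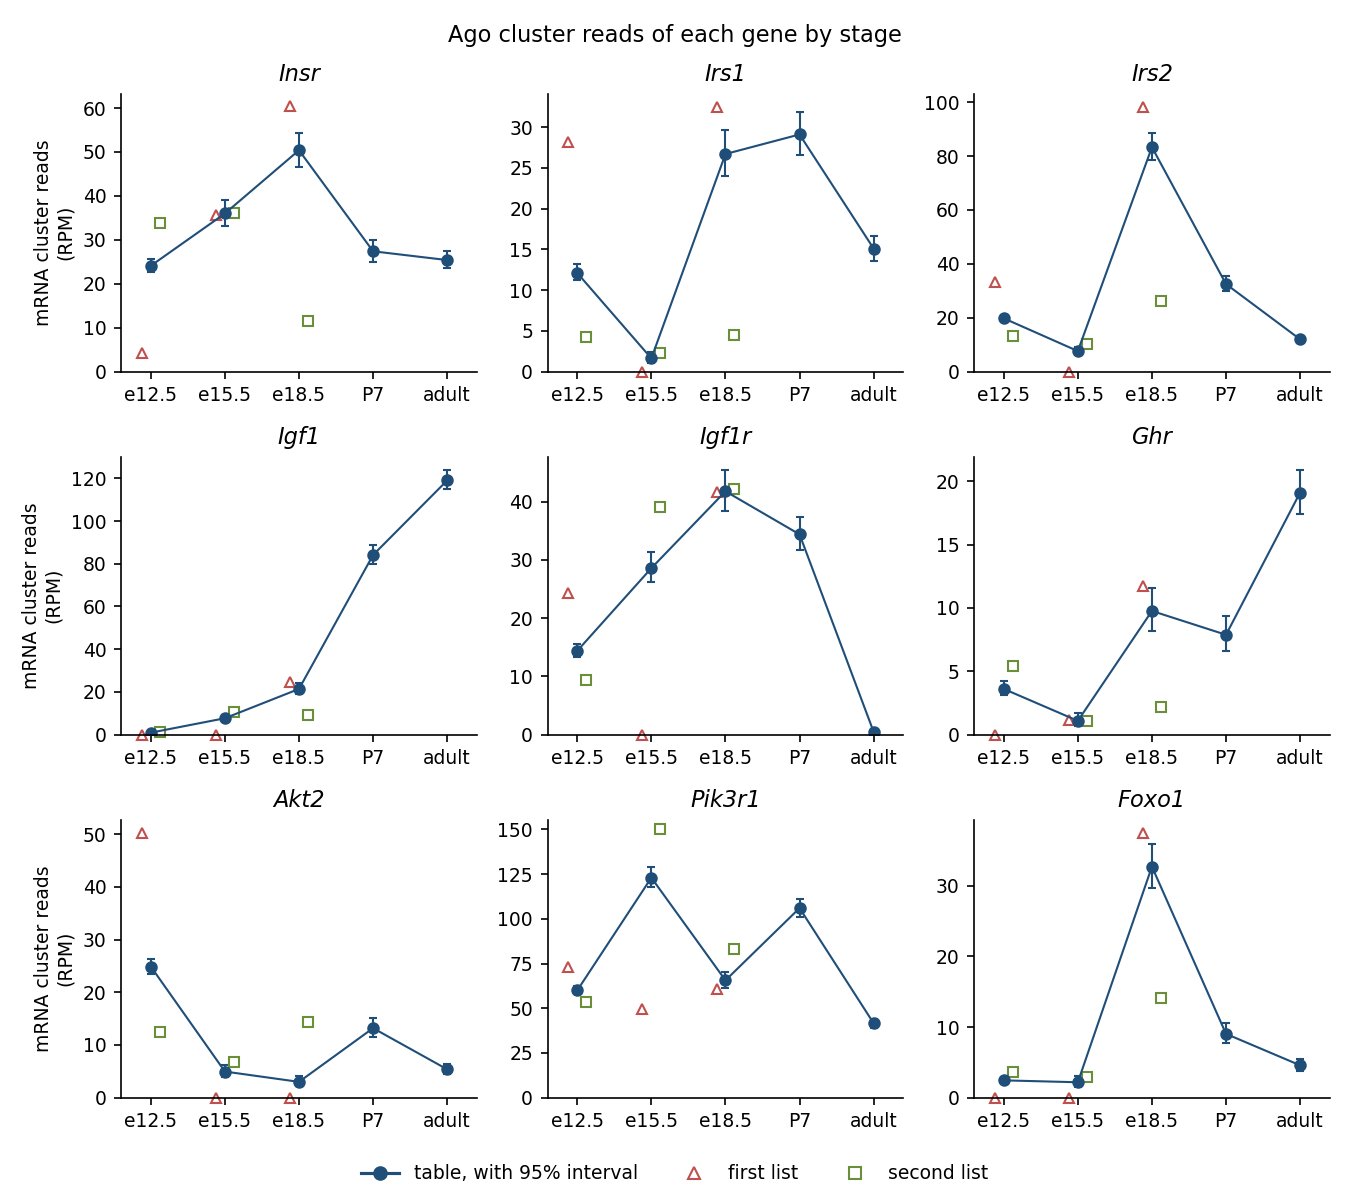
The level, in RPM, in mRNA clusters of each gene at the 5 stages. Filled points are the tables with 95% Wilson intervals of counting error, and open symbols are the 2 lists of each embryonic table, at 0 where a list held no cluster of the gene. Igf1 and Ghr were highest in the adult, where Igf1r had 0.482, and the lists of a table often lay farther apart than the interval.

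The adaptor Irs1 had 12.1, 1.63 and 26.7 RPM in the embryo by age, followed by 29.1 at P7 and 15.1 in the adult. The e15.5 value was 27 reads of 1 cluster, and the intervals of e18.5 and P7 overlapped. Adult over e12.5 was 1.24-fold (1.09 to 1.41), while the lists of e12.5 gave 28.2 and 4.26 RPM. Those of e18.5 gave 32.5 and 4.44, close to the pair of values at e12.5. Its main locus, in the large first exon (chr1:82287378-82287384), held the 8mer of miR-194-5p, with 88 reads at e18.5 and 23 at P7. This site had a conservation score of 0. miR-194-5p took 2.46% of miRNA reads at e18.5, 9.29% at P7, and was the fourth most abundant miRNA in the adult, where the locus was not listed.

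The adaptor Irs2 had 19.8, 7.63 and 83.3 RPM in the embryonic tables in order of age, 32.5 at P7 and 12 in the adult. The e18.5 level stood above all others when the lists were added up. The first list gave 98.3 RPM there and the second 26.3, below the P7 level, and the lists of e12.5 gave 33.3 and 13.1. Adult was 2.72-fold lower than P7 (2.36 to 3.13) and 1.65-fold lower than e12.5 (1.45 to 1.88), but with scaling to mRNA cluster reads these became 1.79-fold lower and 1.05-fold higher. All 77 of its mRNA clusters were in the CDS, with none in the 3'UTR or 5'UTR in any table, and 10 more were in the intron. Of its 45 loci, 9 were in 3 or more tables and 2 in all 5. One of these held the miR-26 site, in exon 1, with 33, 18 and 52 reads in the embryo by age, 71 at P7 and 26 in the adult.

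The regulatory subunit Pik3r1 had 60.0, 123 and 65.6 RPM in the embryo by age, followed by 106 at P7 and 41.6 in the adult. The adult level was the lowest, 2.55-fold below P7 (2.37 to 2.76) and 1.44-fold below e12.5 (1.34 to 1.55). Scaled to mRNA cluster reads alone, adult was 1.68-fold below P7 and 1.2-fold above e12.5, so both this order and the direction depend on the scaling. At e15.5 the lists gave 49.7 and 150 RPM.

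The Pik3r1 locus with the highest mean level was in the CDS and was listed at every stage (chr13:101687210-101687247, exon 13 of 16). It had 279, 386 and 184 reads in the embryonic tables in order of age, 795 at P7 and 784 in the adult, and carried 45.4% of the gene's reads at P7 and 75.8% in the adult. It held the miR-26 7mer, with a conservation score of 1. miR-26a-5p took 1.04%, 1.43% and 1.77% of miRNA reads in the embryo by age, 2.32% at P7 and 3.79% in the adult. A second CDS locus listed at every stage had between 5 and 24 reads (chr13:101686316-101686347). The other loci with high mean levels were not listed throughout. The locus next in mean level (exon 8) had 549 reads at P7 and was not listed in the adult, and the third, over an alternative start codon (chr13:101692261-101692309), had 265, 259 and 103 reads in the embryonic tables and none after birth. The 3'UTR clusters of Pik3r1 had 33.2 RPM at e12.5, 14.4 at P7 and 3.82 in the adult.

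The kinase Akt2 had 24.9, 4.96 and 3.00 RPM in the embryo by age, followed by 13.2 at P7 and 5.38 in the adult. The level was highest at e12.5 and lowest at e18.5, where its interval overlapped that of e15.5, and those of e15.5 and adult overlapped too. Adult was 4.63-fold lower than e12.5 (3.87 to 5.54) and 2.45-fold lower than P7 (1.98 to 3.04). With scaling to mRNA cluster reads these became 2.68-fold and 1.61-fold lower. At e12.5 the lists gave 50.3 and 12.4 RPM, and at e18.5 the first list held none and the second gave 14.4. Its main locus, in the 3'UTR (chr7:27639403-27639409), had 120 reads at e12.5, 16 in the e18.5 table and 97 at P7. None of its 3 loci with most reads held a site of at least 7 matched bases of a miRNA among the 50 most abundant of any table.

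The transcription factor Foxo1 had 2.45, 2.18 and 32.7 RPM in the embryonic tables in order of age, 9.03 at P7 and 4.58 in the adult. The level stood out at e18.5, in both lists of that table, at 37.5 and 14.1. Adult over e12.5 was 1.87-fold (1.44 to 2.43). Its 3 main loci were all in the 3'UTR, in exon 3 of 3, with 102, 91 and 82 reads at e18.5. The second of these had 6 reads at e12.5. Its 7mer of miR-374b-5p, a miRNA with 0.255% of miRNA reads in the e18.5 table, was listed in that table only. None of the 3 was listed at P7 or in the adult.

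**Figure D3:**
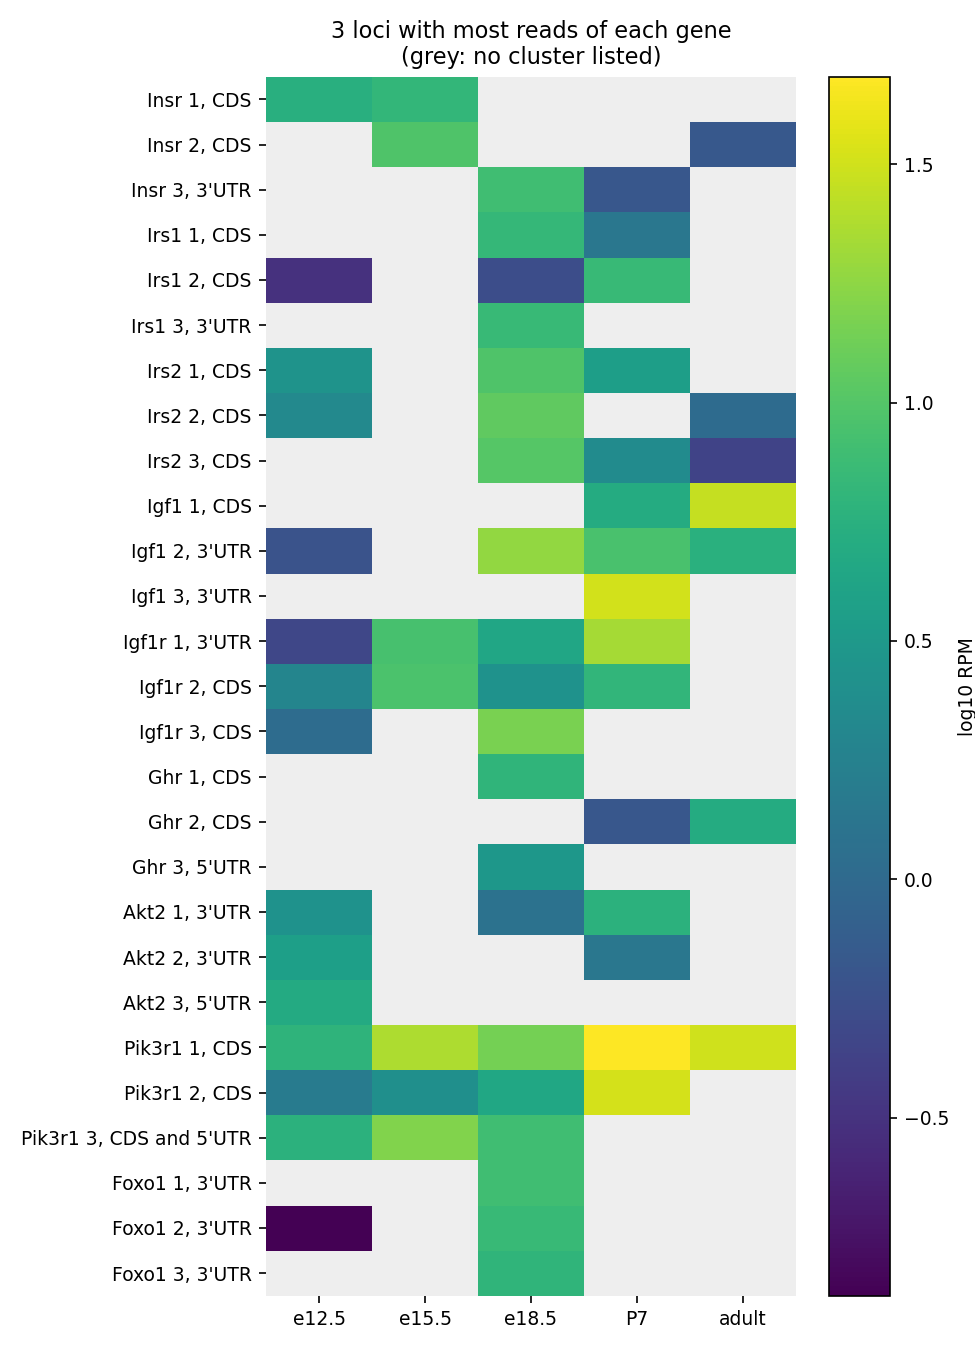
The 3 loci of each gene with the highest mean level over the 5 tables, in rows, by stage, in columns. Colour gives log10 RPM and grey marks a locus with no listed cluster. One row, the first locus of Pik3r1, is coloured at all 5 stages, and the 3 Igf1r rows are grey in the adult.

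Set against all genes, the members did not move as a block. All 9 had an mRNA cluster in both the e12.5 and adult tables. At least 2-fold higher in the adult were 2 members, Igf1 and Ghr, beside 21.4% of all genes, and at least 2-fold lower were 2, Igf1r and Akt2, beside 47.4% of all genes. Among genes with at least 100 reads in both tables these shares were 20.8% and 35.6%. The median gene was at 0.551 of its e12.5 level, and mRNA regions took 23.3% of all cluster reads at e12.5 and 13.5% in the adult. Scaled to the reads of mRNA clusters alone, the median gene was at 0.954, the shares were 31.5% higher and 32.8% lower, and Irs1 and Foxo1 joined the members called higher. By percentile among all genes, which scaling leaves as it is, Igf1 was at 99.7, Ghr at 90.2, Foxo1 at 77.5, Irs1 at 70.0, Insr at 66.4, Pik3r1 at 56.3, Irs2 at 52.7, Akt2 at 26.1 and Igf1r at 3.34.

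**Figure D4:**
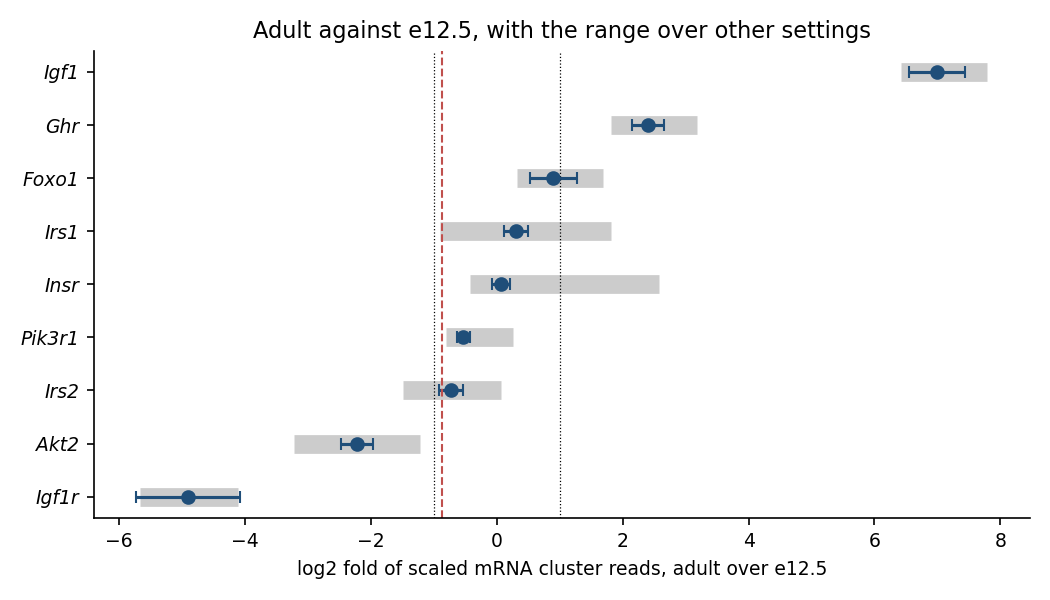
Adult over e12.5 on the log2 scale for each gene. Points are the fold of RPM with 95% counting intervals, grey bands run over the other settings of scaling, read minimum, seed length and list, dotted lines mark 2-fold, and the dashed line marks the median of all genes. The bands of Igf1, Ghr, Akt2 and Igf1r lay outside the 2-fold lines, and those of Insr, Irs1, Irs2 and Pik3r1 crossed 0.

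The other stage comparisons differed in direction. At e18.5, 7 members were at least 2-fold above e12.5, beside 34.1% of all genes, and Akt2 alone was at least 2-fold below, beside 24.1%. Pik3r1 was within 2-fold. With scaling to mRNA cluster reads or to the study's library totals the count was 5, without Insr and Irs1, beside 27.5% and 31.2% of all genes. The study's totals also give a further e18.5 replicate. Its reads were left out of this scaling, though the lists of e18.5 were added up. The count also rests on the added lists, and which lists of the 2 tables correspond is not known. Taken in their order, the second lists gave Insr 33.9 RPM at e12.5 and 11.5 at e18.5, and Ghr 5.39 and 2.22, both lower. Akt2 went from 12.4 to 14.4 RPM in the second lists and from 50.3 to none in the first. Taken crosswise, Insr went from 33.9 to 60.5 and from 4.25 to 11.5, and Ghr from 5.39 to 11.7, all higher. Akt2 then went from 50.3 to 14.4 and from 12.4 to none, both lower. Irs1 gave a similar pair of values at both stages. From P7 to adult, which share the antibodies, Ghr alone was at least 2-fold higher, beside 10.6% of all genes, and Irs2, Igf1r, Akt2 and Pik3r1 were at least 2-fold lower, beside 42.2%. With scaling to mRNA cluster reads, Igf1 joined Ghr as higher, beside 19.9% of all genes, and Igf1r alone stayed lower, beside 26.2%. The e18.5 and adult comparisons share the e12.5 table, and those of the adult share the adult table. Between the 2 lists of a table, 53.3% (e12.5), 60.4% (e15.5) and 57.2% (e18.5) of genes lay at least 2-fold apart. The median gene had a second list at 0.526, 0.475 and 0.501 of the first, a shift that these shares include. At least 2-fold apart were also 5 of the 6 members found in both lists of the e12.5 table, 1 of 3 in the e15.5 table and 6 of 8 in the e18.5 table. In 1 list only were Igf1, Ghr and Foxo1 at e12.5, all members but Insr, Ghr and Pik3r1 at e15.5, and Akt2 at e18.5.

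Cell type markers moved with stage as well. The summed level of 6 hepatocyte markers, including Alb and Ttr, was 620, 1970 and 5080 RPM in the embryo by age, 6810 at P7 and 8840 in the adult. Erythroid markers, 5 globin and other genes, were at 35800, 50800 and 50900 RPM in the embryo by age, followed by 18200 at P7 and 883 in the adult, where Slc4a1 was not listed. The hepatocyte sum was higher at each stage than at the one before, as Igf1 was, while Ghr was lower at e15.5 than at e12.5. The hematopoietic sum of 3 genes was 13.2, 32.7 and 69.1 RPM in the embryo by age, 35.5 at P7 and 10.8 in the adult. At the main scaling it was lowest in the adult, as were the erythroid sum and Igf1r. Since mRNA regions took 23.3% of cluster reads at e12.5 and 13.5% in the adult, the order of the hematopoietic sum at these stages depends on the scaling. Stellate or mesenchymal markers (4 genes) ran from 30.6 RPM at e15.5 to 161 at P7, endothelial markers (3 genes) from 10.9 at e12.5 to 178 at P7, and biliary markers (3 genes) from none listed at e15.5 to 18.2 RPM at e18.5. Their part in the members' levels was not tested.

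Of 63 other genes of the pathway, 46 were measured in both the e12.5 and adult tables. At least 2-fold higher in the adult were 9 (19.6%) and lower were 21 (45.7%), beside 21.4% and 47.4% of all genes, with a median fold of 0.54, beside 0.551. With scaling to mRNA cluster reads 14 were higher and 13 lower. Among Akt and its downstream arm 1 gene was higher and 6 lower, among adaptors 1 and 4, in the lipid kinase arm 0 and 3, in the growth hormone arm 0 and 2, and among receptors 0 and 1. Among ligands and carriers 2 were higher and 2 lower, among brakes 2 and 1, among outputs 2 and 0, and among transcription factors 1 and 2. Within 2-fold were 5 genes of the Akt arm, 2 adaptors, 2 of the lipid kinase arm and 4 of the growth hormone arm. Ligands and carriers, brakes and outputs each had 1 gene within 2-fold. Of the genes with at least 100 reads in both tables, Slc2a2, the hepatic glucose transporter, was higher by 8.92-fold (3.83 to 34.2 RPM), the binding protein Igfbp4 by 5.82-fold (20.0 to 116) and the lipogenic factor Srebf1 by 3.45-fold (to 64.0 RPM). Akt1 was 3.87-fold lower (16.2 to 4.18), the adaptor Gab1 3.29-fold lower (40.3 to 12.3) and the transcription factor Foxo3 3.28-fold lower (202 to 61.5). With scaling to mRNA cluster reads Gab1 and Foxo3 were 1.9-fold lower each, under the 2-fold call. The read minimum leaves out genes with few adult reads, such as the adaptor Grb10, chosen after its values were seen, with 3265 reads at e12.5 and 52 in the adult (34.8-fold lower). Also chosen after its values were seen was the fetal growth factor Igf2, with 819, 660 and 2600 RPM in the embryo by age and 3610 at P7 and no listed mRNA cluster in the adult, beside Igf1, which was highest there.

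Where the clusters lay within the transcript differed among the members. In the sum of the tables Igf1 had 58 3'UTR clusters and 15 in the CDS, Pik3r1 57 and 50, and Insr 48 and 32. Irs1 had 14 and 30, Ghr 5 and 23, Igf1r 10 and 29, Akt2 12 and 19, and Foxo1 11 and 15, so in these the CDS held more. Together, the 3'UTR held 39.7% of the members' mRNA clusters at e12.5 (95% Wilson interval 31.9 to 48.1, 136 clusters) and 40.3% in the adult (32.2 to 48.9, 129 clusters). Over all genes the 3'UTR share was 41.5% at e12.5 and 29.7% in the adult. Igf1 alone held 29 of the members' 52 adult 3'UTR clusters and 40 of their 129 adult mRNA clusters. At e12.5 it held 2 of 54 3'UTR clusters, so the adult share of the members rests largely on Igf1. The intervals take the clusters of a gene as independent.

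**Figure D5:**
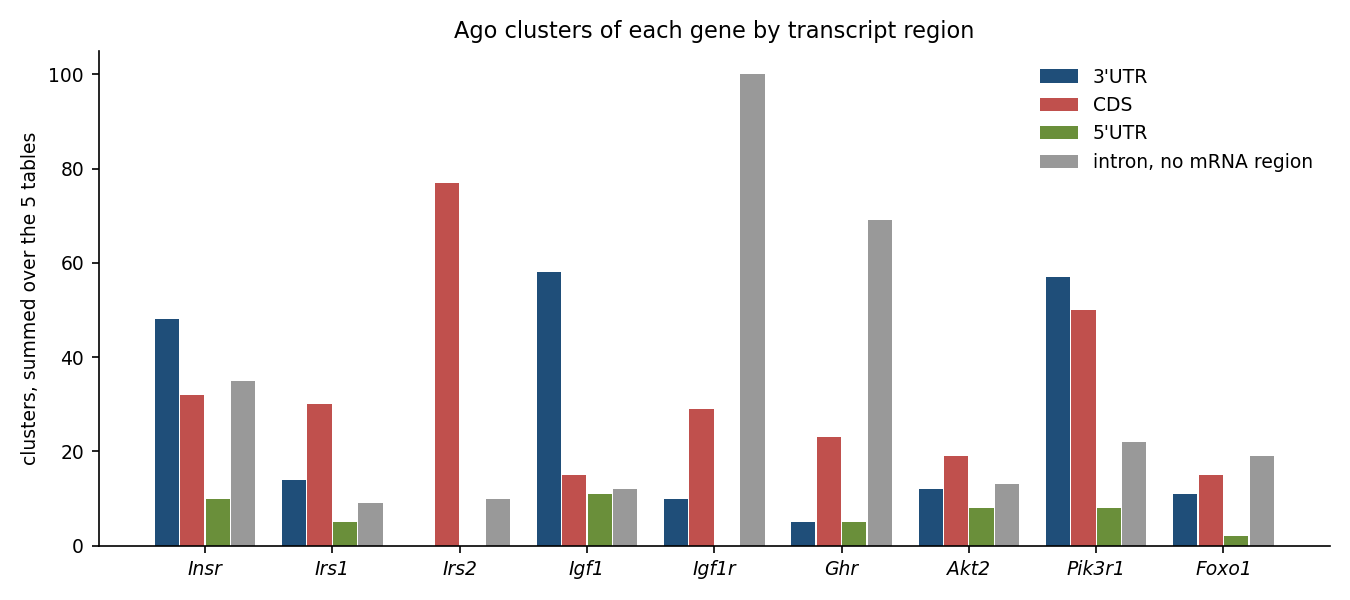
Number of clusters of each gene in the 3'UTR, CDS and 5'UTR, and in introns with no mRNA region, summed over the 5 tables; a cluster listed under 2 mRNA regions counts in both. Igf1 had the most 3'UTR clusters (58), Irs2 had CDS clusters (77) and no UTR cluster, and Igf1r had 100 intron clusters.

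Sites of abundant miRNAs were listed in part of the members' 3'UTR clusters. With the 100 most abundant miRNAs of each table, 31.5% of 54 clusters at e12.5 held a site (20.7 to 44.7), beside 46.8% over all genes. In the adult 26 of 52 clusters did (36.9% to 63.1%), beside 48.9%. The members' shares were 29.2%, 42.3% and 45.8% in the tables between these stages, by age, beside 51.5%, 48.1% and 45.8% over all genes. The families counted next are those of miRNAs among the 50 most abundant of any table. By seed, the miR-15 and miR-16 family and miR-673-5p each reached 5 of the 9 genes with sites of at least 7 matched bases. The families of miR-26, miR-101a-3p, miR-199 (3p arm) and miR-421-3p each reached 4, which for miR-26 were Igf1, Insr, Irs2 and Pik3r1. The same counts over all genes were not computed. Within this limit Igf1 held such sites of 20 seed families and Pik3r1 of 18, against 4 for Igf1r. These genes also differed in their number of loci in mRNA regions, at 56, 67 and 22, and the family counts are not corrected for it.

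Most loci were seen once. Of the 380 loci of the members in mRNA regions, 263 (69.2%) were in 1 table only, 86 in 2 and 4 in all 5. The same shares over all genes were not computed. The loci in all 5 tables were 2 of Pik3r1 and 2 of Irs2. A list of sites chosen after their values were seen, of miRNAs with at least 1% of the miRNA reads of a table and listed in at least 2 tables, gave 21 positions in 7 of the 9 genes, 8 of them in Igf1 and none in Ghr or Akt2.

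The genes most like a member by stage were sought for the 3 members with the highest mean level, uncorrected for length, as the smallest root mean square difference of centred log2 levels over the 5 tables, among genes with at least 100 reads in every table. For Pik3r1 these were Eps15 (0.11) and Bsg (0.14), for Insr Aldh16a1 (0.08) and Terf2ip (0.12), and for Igf1 Gc (0.70) and Mgst1 (0.72). Igf1 itself, with 42 reads at e12.5, would not pass this minimum, so genes as low as it was at e12.5 were not searched. Gc, the plasma vitamin D carrier, was at 7.31 RPM at e12.5 and 1320 in the adult.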

How the data were processed

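For each stage, 1 deposited table of Ago HITS-CLIP interactions was used, and its stage came from the sample labels. The authors processed reads with the FASTX-Toolkit, mapped them with Bowtie to mm10 and miRBase v19 (the submitters' processing notes also name mm9; tool versions are not given in the sources used here), grouped overlapping reads into clusters, used UCSC refGene and Ensembl for annotation, and searched the clusters for miRNA seeds. The deposited read numbers are an unscaled signal, given for each site and headed as a highest read number. The deposited conservation and free energy columns are scores. For Ago2, 2 biological replicates are named in the study's methods, which the tables do not separate. The study's library totals name a further replicate for e18.5 only, and the scaling to these totals left it out.

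The highest read number of a cluster was counted once per list, and overlapping clusters of the same strand in both lists were joined for counts. Scaled levels, folds and Wilson 95% intervals were computed with Python 3.11.15, pandas 2.3.3, scipy 1.17.1 and statsmodels 0.14.6, and a fold of 2 was the call. The number in each interaction name, which the tables do not explain, was used as its miRNA read count. Clusters holding the members' sites were joined into loci, whose ends are those of the sites. All 3180 member entries in mRNA regions had their seed match in GRCm38, read with pysam 0.24.0. Of 30 miRNAs considered for naming at sites, 26 were found in RefSeq. Exons are those of GENCODE, on the transcript with the longest coding sequence over the locus. The scripts were tested on simulated data.

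The members, the pathway list and the cell type markers were chosen with earlier results of these data known. One erythroid marker is not reported here and was left out of the sum. The named sites are those of the 3 loci per member with the highest mean level, for up to 3 miRNAs per locus among the 50 most abundant of any table; the let-7, miR-122, miR-26 (Irs2), miR-30 and miR-27b sites were chosen after their values were seen, as were the comparisons of P7 with adult and of e12.5 with e18.5, their other scalings, and the comparison of the lists. Named pathway genes are the 3 with the largest fold in each direction among those with at least 100 reads in both tables. Alternatives were other scalings, a minimum of 10 reads, sites of at least 7 matched bases, each list alone, and genes absent from a table set to the lowest listed reads.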

Additional observations from a re-analysis of the deposited data

How the results depend on the processing

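Igf1 and Ghr were higher and Akt2 lower in the adult than at e12.5 under every setting that measured them, and Igf1r was lower likewise, but sites of at least 7 matched bases left it unmeasured in the adult. The members called higher were 4 with scaling to mRNA cluster reads, beside 31.5% of all genes, and 1, Insr, with the first list alone, which measured 6 members, beside 8.88%. The first list alone called 3 members lower, with Irs2 added, beside 68.6% of all genes. Those called higher were 3 with scaling to the study's library totals and with sites of at least 7 matched bases, both with Foxo1 added, and 3 with the second list alone, with Irs1 added. The members called lower were 1 with sites of at least 7 matched bases. Of the other pathway genes, 14 were called higher and 13 lower with scaling to mRNA cluster reads, 4 higher with the first list alone, and 18 higher with absent genes set to 5 reads. Of all genes, 31.5% were higher and 32.8% lower, 8.88% higher and 24.3% higher under these settings. The share of the members' 3'UTR clusters with a site of an abundant miRNA was 53.7% at e12.5 and 69.2% in the adult with the top 200 miRNAs, 34.6% in the adult with the top 50, and 16.7% and 26.9% with sites of at least 7 matched bases. The first 2 settings differ by construction in the number of miRNAs, and for the other changes the cause was not tested. The log2 fold of adult over e12.5 ran from -0.42 to 2.58 for Insr, from -0.90 to 1.82 for Irs1, from -1.48 to 0.07 for Irs2, from -0.81 to 0.26 for Pik3r1 and from 0.32 to 1.69 for Foxo1. No paired analysis was possible because each stage has 1 table. A gene with under 100 reads, such as Igf1 at e12.5 or Igf1r in the adult, rests on few clusters, and the level of the embryonic tables depends on the list.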
